A study of Mus musculus with 6 samples.

Results

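The 33 genes described here form the core of the heat shock response and of the unfolded protein response, the programmes by which a cell makes more chaperones when its proteins misfold. They were chosen by name: 12 genes of the cytosolic and mitochondrial heat shock response, 14 genes of the endoplasmic reticulum (ER) and 7 genes of the branch that runs through the transcription factor ATF4. All 33 symbols had a single row among the 33274 gene rows of the count table, and 32 of them passed the filter on low counts, as did 18327 genes in all. Trib3 did not pass.

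The counts came from RNA-seq of poly(A) RNA from the cerebral cortex of 6 wild type female ICR mice, an outbred stock, aged 6 weeks. The methylphenidate lineage (3 libraries) descended from males given methylphenidate, an inhibitor of dopamine and noradrenaline reuptake, at 15 mg/kg under the skin for 21 days. The saline lineage (3 libraries) descended from males given saline at 10 mL/kg in the same way. Treated males were mated with untreated females, as was 1 son picked at random from each litter, so the mice sequenced were grandoffspring that had received neither agent, and the comparison asks whether the grandsire's treatment shows in their cortex.

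In the heat shock response, the factor HSF1 binds heat shock elements and raises the chaperone families HSP70, HSP90 and HSP40, which fold or refold proteins in the cytosol. In the ER, the chaperone BiP (Hspa5) keeps the sensors IRE1, PERK and ATF6 inactive until unfolded proteins draw it away. IRE1 then splices Xbp1 messenger RNA and ATF6 is cut to an active form, and both raise ER chaperones, while PERK phosphorylates eIF2-alpha and so favours translation of ATF4, which raises genes of amino acid supply and, under lasting stress, of cell death. Neurons hold high levels of constitutive HSP70 and HSP90 proteins without any stress.

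Total counts were 23896752 to 28120640 per library, so a count of 0 allowed at most 0.106 to 0.124 CPM (counts scaled to library size, with library sizes adjusted by the trimmed mean of M-values), for counting error only. The 8 excitatory neuron markers, none at 0 in any library, summed to 4940 to 5465 CPM in the methylphenidate libraries and 5044 to 5301 CPM in the saline libraries. Of these 8, 5 were lower in the methylphenidate lineage at an unadjusted p under 0.05 by edgeR, as 3.31% of all genes were. None passed the adjusted threshold. Libraries differed in other markers. The 12 striatal projection neuron markers summed to 930, 591 and 1230 CPM in methylphenidate replicates 1, 2 and 3, against 591, 468 and 461 CPM in saline replicates 1, 2 and 3. All 12 were higher at an unadjusted p under 0.05 by edgeR, as 4.2% of all genes were. None passed the adjusted threshold and none was at 0. The 7 choroid plexus markers summed to 506, 204 and 25.8 CPM in the methylphenidate libraries, against 45, 663 and 425 CPM in the saline libraries. The 5 blood markers lay between 146 and 256 CPM in the methylphenidate libraries and between 134 and 305 CPM in the saline libraries, the highest being saline replicate 1. Summed oligodendrocyte markers (8 genes) lay at 5540 to 7480.5 CPM in methylphenidate and 5483.4 to 7534.5 CPM in saline libraries, and endothelial and mural markers (7) at 200 to 223 CPM in methylphenidate and 210 to 224 CPM in saline libraries. Astrocyte markers (6) lay at 1290 to 1520 CPM in methylphenidate and 1181 to 1378 CPM in saline libraries, and microglia markers (6) at 335.5 to 432 CPM in methylphenidate and 331 to 361 CPM in saline libraries. None of these markers was at 0 in any library. Kinship among the 3 mice of a lineage is not labelled, and the p-values speak for the spread of these libraries alone. In whole tissue, fewer cells of a type and less RNA per cell cannot be told apart.

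Promoter sequences from RefSeq (GRCm38.p6), running from 250 bases before to 50 bases after each start site, were found for 27 of the 33 genes. They are shown because the 3 groups of genes are known by the elements that drive them. The heat shock element was searched as GAANNTTCNNGAA, on both strands. It was found in 3 of 9 heat shock genes with an entry, in 0 of 11 ER genes and in 0 of 7 ATF4 branch genes, against 0.662% of all 27025 genes with an entry, a gene with several promoters counting once. Hspd1 and Hspe1, which encode the mitochondrial chaperonin pair, are transcribed away from each other, and their promoters share the same element, with a second match overlapping it. Hsph1 has its match just after the start site. The other heat shock genes with an entry, Hspa1a, Hspa1b, Hspa4, Dnaja1, Dnajb1 and Hspb1, had no match. Hspa8, Hsp90aa1 and Hsp90ab1 had no entry and were not searched. Capitals mark the element.
Hspe1 (chr1:55088047-55088083, + strand): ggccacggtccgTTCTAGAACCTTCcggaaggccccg
Hsph1 (chr5:149636276-149636312, - strand): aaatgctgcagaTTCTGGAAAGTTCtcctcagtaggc

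The ER stress response element, searched as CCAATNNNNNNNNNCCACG on both strands, was found in 5 of 11 ER genes with an entry and in none of the 9 heat shock or 7 ATF4 branch genes, against 0.137% of all genes with an entry. The related element II, ATTGGNCCACG, was found in Herpud1 alone among the 27 genes and in 0.0444% of all genes with an entry. The promoter of Hspa5 is shown whole because BiP is the standard readout of ER stress (chr2:34771840-34772139, + strand), and the others as the element with 12 bases on each side. Hsp90b1 held a second match (window chr10:86705626-86705668), which is not printed.
Hspa5: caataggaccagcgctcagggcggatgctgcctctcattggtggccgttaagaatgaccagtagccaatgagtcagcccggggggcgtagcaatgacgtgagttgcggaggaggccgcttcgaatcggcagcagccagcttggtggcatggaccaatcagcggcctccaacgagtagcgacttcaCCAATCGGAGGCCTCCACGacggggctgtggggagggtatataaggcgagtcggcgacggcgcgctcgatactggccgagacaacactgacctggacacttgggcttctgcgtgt
Hsp90b1 (chr10:86705521-86705563, - strand): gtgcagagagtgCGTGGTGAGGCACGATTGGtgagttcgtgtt
Calr (chr8:84847063-84847105, - strand): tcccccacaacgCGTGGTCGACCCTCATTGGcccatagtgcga
Pdia6 (chr12:17266479-17266521, + strand): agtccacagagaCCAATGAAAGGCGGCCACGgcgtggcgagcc
Creld2 (chr15:88819508-88819550, + strand): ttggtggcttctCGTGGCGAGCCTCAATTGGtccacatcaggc
Herpud1, element II (chr8:94386365-94386399, + strand): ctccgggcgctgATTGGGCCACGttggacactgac

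The composite element bound by ATF4 with C/EBP factors, searched as TGATGNAA on both strands, was found in 4 of 7 ATF4 branch genes with an entry and in 4.51% of all genes with an entry. Herpud1, counted among the ER genes, held it too, and no heat shock gene did. Chac1 and Atf3 carried the same core, and Asns a variant of it.
Chac1 (chr2:119351037-119351068, + strand): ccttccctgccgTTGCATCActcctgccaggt
Atf3 (chr1:191183424-191183455, - strand): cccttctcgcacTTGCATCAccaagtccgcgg
Asns (chr6:7693213-7693244, - strand): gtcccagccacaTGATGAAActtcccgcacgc
Trib3 (chr2:152344027-152344058, - strand): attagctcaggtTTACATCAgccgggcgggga
Herpud1 (chr8:94386305-94386336, + strand): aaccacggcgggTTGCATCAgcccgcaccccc
A match describes these letters and not a site in use, and its absence from a window of 300 bases says nothing of the factor.

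**Figure D1:**
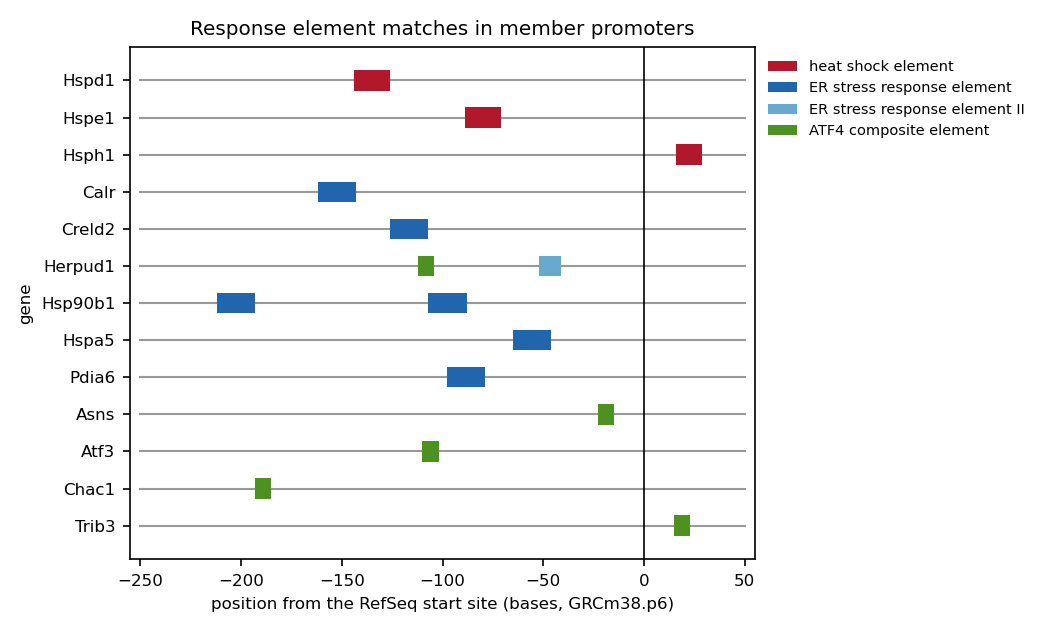
Matches of the searched elements in the promoters of the 13 genes that hold any, by distance from the RefSeq start site in bases. Each grey line is a promoter and each coloured block a match, and heat shock, ER stress and ATF4 composite elements fall in their own groups of genes, with Herpud1 holding 2 kinds.

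None of these genes passed the test between the lineages, and their log2 fold changes ran from -0.31 to 0.32. In the edgeR quasi-likelihood fit over all 18327 genes tested, 0 of the 32 tested members passed an adjusted p of 0.05, as 0.0273% of all genes did, and DESeq2 and limma-voom called none either. The smallest adjusted p of a member was 0.63, for Atf6. At an unadjusted p under 0.05, 3 members were lower in the methylphenidate lineage (Atf6, Herpud1 and Dnaja1) and 0 were higher, where 3.31% of all genes were lower and 4.2% higher. The log2 fold change, methylphenidate minus saline, was below 0 in 23 of the 32 members and in 49.7% of all genes tested. Its median was -0.06 over the members and 0.00 over all genes. The 95% interval of the difference lay within 0.5 of 0 on the log2 scale for 24 of 32 members, and the exceptions were Hspa1a, Hspb1, Sdf2l1, Creld2, Herpud1, Atf3, Chac1 and Ddit4. These intervals are not adjusted for the number of genes, and the bound of 0.5 exceeds the log2 fold change of every member in size. The count at an unadjusted p changed when a library was left out, which also leaves fewer libraries in 1 lineage. Without methylphenidate replicate 3, which had the highest striatal marker sum and the lowest choroid plexus sum, 0 members had an unadjusted p under 0.05. The log2 fold changes of Dnaja1 and Herpud1 were then -0.12 and -0.26, near the -0.13 and -0.27 of the main fit. That of Atf6 went from -0.22 to -0.13. Without methylphenidate replicate 1 there was 1, and without methylphenidate replicate 2 there were 6. The part of these markers in the members' values was not tested.

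**Figure D2:**
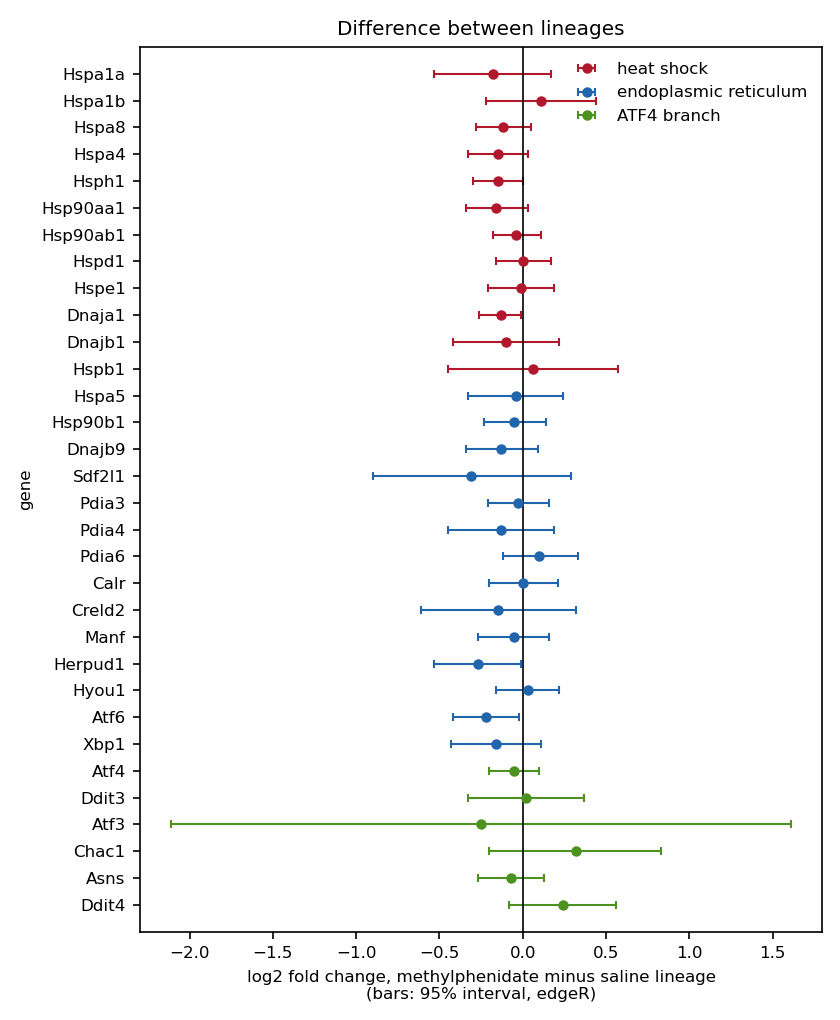
Log2 fold change of each of the 32 tested genes, methylphenidate minus saline lineage, on the horizontal axis, with 95% intervals from edgeR as bars. Of the points, 23 lie left of 0, and every bar reaches or crosses it but those of Dnaja1, Herpud1 and Atf6; the bar of Atf3 is by far the widest.

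The cytosolic HSP90 genes Hsp90ab1 and Hsp90aa1 and the cytosolic HSP70 gene Hspa8 were the most abundant members. None of the 12 heat shock genes passed the test. Per kilobase of exon, the constitutive HSP90 gene Hsp90ab1 lay highest of all members, at 401 CPM per kb in the methylphenidate lineage and 412 in the saline lineage, followed by its inducible relative Hsp90aa1 at 233 in the methylphenidate and 259 in the saline lineage and by the constitutive HSP70 gene Hspa8 at 175 in the methylphenidate and 190 in the saline lineage. Far below them lay the inducible HSP70 genes Hspa1a, at 3.27 CPM per kb in the methylphenidate and 3.71 in the saline lineage, and Hspa1b, at 5.74 in the methylphenidate and 5.32 in the saline lineage. The small heat shock protein gene Hspb1 lay near them, at 4.57 CPM per kb in the methylphenidate and 4.36 in the saline lineage. The median log2 fold change of the 12 genes was -0.11, and 9 of them lay below 0. Without saline replicate 1 that median was -0.05 and without methylphenidate replicate 3 it was -0.07. The 5 excitatory neuron markers noted above lay lower too, and their part in these values was not tested.

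Hspa8, whose protein folds new chains and uncoats clathrin vesicles, had 805, 763 and 689 CPM in methylphenidate replicates 1, 2 and 3, against 866, 790 and 793 CPM in saline replicates 1, 2 and 3. Its groups overlapped, and the log2 fold change was -0.12 (SE 0.07, adjusted p = 0.773 by edgeR). Hsp90aa1 had 918, 998 and 828 CPM in the methylphenidate libraries, against 975, 1097 and 986 CPM in the saline libraries, a log2 fold change of -0.16 (SE 0.08, adjusted p = 0.722 by edgeR). In both genes methylphenidate replicate 3 was the lowest library. Hsp90ab1 averaged 1203 ± 40.3 CPM in the methylphenidate lineage and 1236 ± 64.8 CPM in the saline lineage (SD, n = 3 each), a log2 fold change of -0.04 with a 95% interval of -0.18 to 0.11.

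Among the heat shock genes, the groups stood apart in 2 co-chaperones of HSP70, by small amounts. Dnaja1, an HSP40 protein that delivers clients to HSP70, had 252, 259 and 246 CPM in the methylphenidate libraries, against 284, 272 and 273 CPM in the saline libraries. The groups did not overlap, and the log2 fold change was -0.13 (SE 0.06, unadjusted p = 0.0423, adjusted p = 0.643 by edgeR). Hsph1, the HSP110 protein that exchanges nucleotide on HSP70, had 266, 274 and 242 CPM in the methylphenidate libraries, against 298, 291 and 278 CPM in the saline libraries. These groups did not overlap either, with a log2 fold change of -0.15 (SE 0.07, adjusted p = 0.672 by edgeR). Hspa4, a second HSP110 protein, averaged 201 ± 16.3 CPM in the methylphenidate lineage and 223 ± 17.1 CPM in the saline lineage, a log2 fold change of -0.15 (SE 0.08, adjusted p = 0.741 by edgeR). Over all members the groups did not overlap in 3 genes, Dnaja1, Hsph1 and Atf6, each lower in the methylphenidate lineage, while this was so for 6.51% of all genes in that direction and 6.97% in the other, where 0 members stood.

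The most stress-sensitive genes of the group showed no common direction. Dnajb1, an HSP40 gene that HSF1 induces strongly, had 41.4, 57.6 and 52.6 CPM in the methylphenidate libraries, against 62.1, 44.8 and 55.8 CPM in the saline libraries, and the spread within each lineage exceeded the difference (log2 fold change -0.10, SE 0.14, adjusted p = 0.917 by edgeR). Hspa1a had 9.08, 9.11 and 10.9 CPM in the methylphenidate libraries, against 12.3, 11.4 and 9.27 CPM in the saline libraries. Hspa1b had 14.2, 17.9 and 16.1 CPM in the methylphenidate libraries, against 17.8, 13.5 and 13.5 CPM in the saline libraries. The log2 fold changes of these neighbouring genes were -0.18 (SE 0.16) and 0.11 (SE 0.15), and edgeR gave them an adjusted p of 0.856 and 0.910. Their transcripts share 52.7% of the 75-base windows of Hspa1a, so reads can be assigned to either, and their sum is the safer value. It averaged 25.8 ± 2.15 CPM in the methylphenidate lineage and 25.9 ± 3.77 CPM in the saline lineage (SD, n = 3 each). Hspb1 averaged 4.71 ± 0.517 CPM in the methylphenidate lineage and 4.50 ± 1.00 CPM in the saline lineage, a log2 fold change of 0.06 (SE 0.23).

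For the mitochondrial chaperonin genes, the intervals held both lineages close. Hspd1 averaged 130.5 ± 5.04 CPM in the methylphenidate lineage and 130.1 ± 10.9 CPM in the saline lineage, and the 95% interval of its log2 fold change ran from -0.16 to 0.17. Hspe1, its co-chaperonin, averaged 45.6 ± 4.01 CPM in the methylphenidate lineage and 45.8 ± 2.45 CPM in the saline lineage, with an interval of -0.21 to 0.19. Their shared promoter was described above with its heat shock elements.

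Several heat shock genes share sequence with other genes, such as Hspd1 with its processed copy Hspd1-ps3. Of the 75-base windows of their GENCODE M21 transcripts, 42.8% were shared with other genes for Hsp90aa1, 33% for Hspa8, 46.4% for Hspb1, 29.6% for Hspd1, 18.4% for Dnaja1 and 11.9% for Hspe1, and the rule by which such reads were counted is not given in the sources used. Levels of these genes, and of Hspa1a and Hspa1b, are therefore uncertain. The shares count either strand. On the same strand alone they were 32.8% for Hspa8 and 10.4% for Dnaja1, while the other percentages above stayed the same. No ER or ATF4 branch gene shared more than 10% of its windows.

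**Figure D3:**
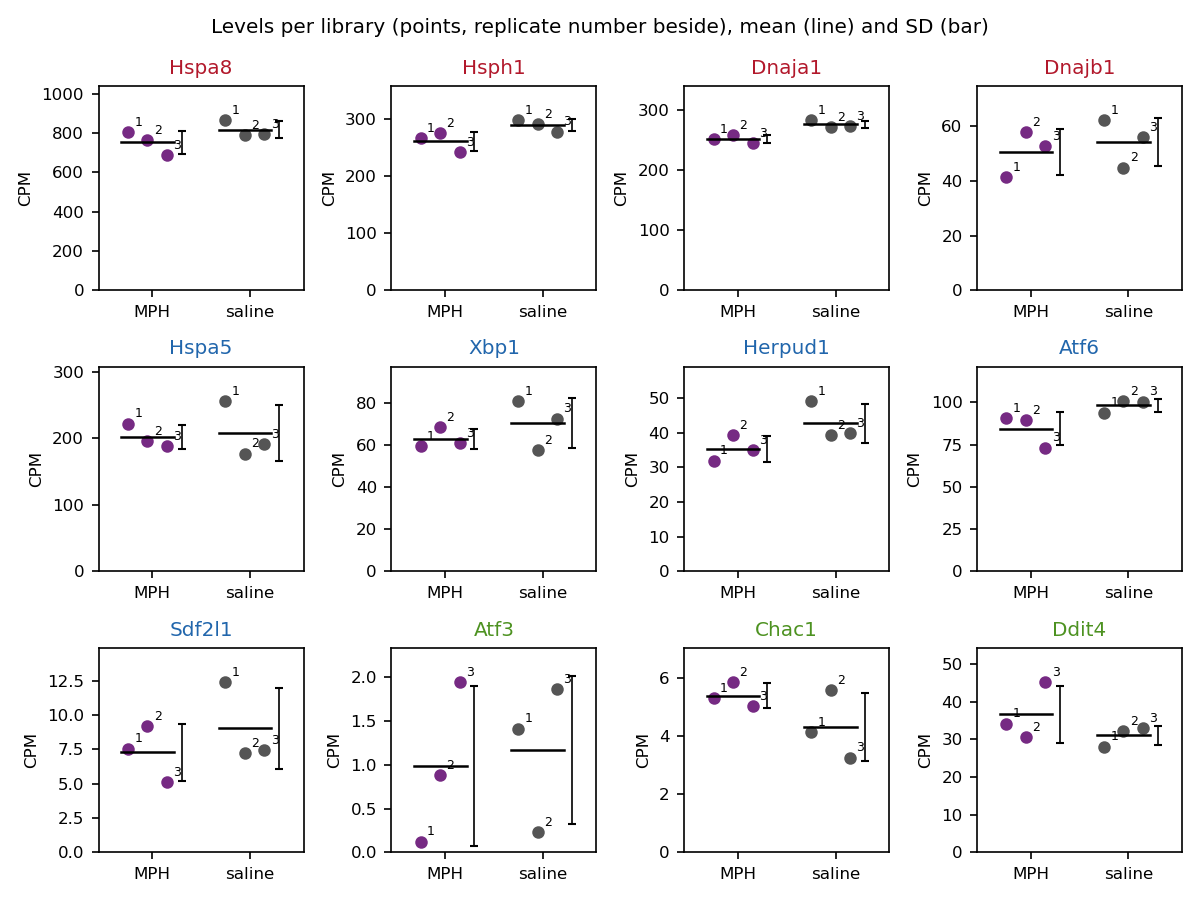
CPM of 12 members by library, methylphenidate lineage (MPH, purple) left of saline (grey), with replicate numbers beside the points, the mean as a line and the SD as a bar. Dnaja1, Hsph1 and Atf6 are lower in every methylphenidate library than in any saline library, while saline replicate 1 stands above the rest in Hspa5, Xbp1, Herpud1 and Sdf2l1.

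None of the 14 ER genes passed the test, and 1 saline library stood above the others in most of them. Their median log2 fold change was -0.09 over 14 genes, 11 of them below 0. Saline replicate 1 held the highest level in 11 of the 14, and in 7 of the 12 heat shock genes and 1 of the 6 tested ATF4 branch genes, while it was the highest library for 16.0% of all genes tested. The mean of log2 CPM, centred on each gene's mean, was 0.01, -0.01 and -0.14 in methylphenidate replicates 1, 2 and 3, against 0.25, -0.09 and -0.02 in saline replicates 1, 2 and 3. Without saline replicate 1 the median log2 fold change was 0.03. This library also had the highest blood marker sum, and its choroid plexus marker sum of 45 CPM lay below those of all libraries but methylphenidate replicate 3. The part of these in the ER genes was not tested.

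Hspa5 had 222.5, 196 and 188 CPM in the methylphenidate libraries, against 256, 177 and 191 CPM in the saline libraries. Saline replicate 1 lay above all methylphenidate libraries, saline replicate 2 below all of them and saline replicate 3 among them, with a log2 fold change of -0.04 (95% interval -0.33 to 0.24, adjusted p = 0.966 by edgeR). Hsp90b1 (GRP94, the HSP90 protein of the ER) had 319, 274 and 273 CPM in the methylphenidate libraries, against 321, 293 and 280 CPM in the saline libraries. Calr (calreticulin, a lectin chaperone) averaged 270 ± 23.5 CPM in the methylphenidate lineage and 270 ± 29.7 CPM in the saline lineage, with a 95% interval of -0.20 to 0.21 for the log2 fold change. Hyou1, the nucleotide exchange factor of BiP, averaged 92.4 ± 3.67 CPM in the methylphenidate lineage and 90.5 ± 9.86 CPM in the saline lineage (log2 fold change 0.03, SE 0.09).

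The protein disulfide isomerases, which form and rearrange disulfide bonds in the ER, overlapped between the lineages. Pdia3, which pairs with calreticulin, averaged 169 ± 12.4 CPM in the methylphenidate lineage and 172 ± 16.5 CPM in the saline lineage. Pdia4 had 29.8, 29.8 and 24.7 CPM in the methylphenidate libraries, against 37.8, 28.4 and 26.1 CPM in the saline libraries. Pdia6 had 103, 110 and 101 CPM in the methylphenidate libraries, against 112, 83 and 96.1 CPM in the saline libraries. In all of these saline replicate 1 was the highest library. Their log2 fold changes were -0.03 (SE 0.08), -0.13 (SE 0.14) and 0.10 (SE 0.10), and the smallest of their adjusted p was 0.870 by edgeR.

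Among the ER genes, Sdf2l1 and Creld2 had the widest spread on the log2 scale between libraries of a lineage. Sdf2l1, a component of the BiP complex, had 7.55, 9.21 and 5.11 CPM in the methylphenidate libraries, against 12.4, 7.23 and 7.45 CPM in the saline libraries (log2 fold change -0.31, SE 0.27, adjusted p = 0.859 by edgeR). Without saline replicate 1 this log2 fold change was -0.01, and without methylphenidate replicate 2 it was -0.51. Creld2, a disulfide isomerase-like protein, had 10.4, 8.76 and 10.7 CPM in the methylphenidate libraries, against 13.8, 7.74 and 11.5 CPM in the saline libraries. The groups of each gene overlapped, and in each saline replicate 1 was the highest. Manf, a secreted factor of the ER with neurotrophic activity, was steadier, at 42.1 ± 1.71 CPM in the methylphenidate lineage and 43.8 ± 4.83 CPM in the saline lineage. Dnajb9, an HSP40 protein that returns BiP to IRE1, averaged 42.8 ± 1.97 CPM in the methylphenidate lineage and 46.8 ± 5.06 CPM in the saline lineage (log2 fold change -0.13, SE 0.10).

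The sensor Atf6 and the degradation gene Herpud1 had the smallest p of the members. Atf6, the membrane-bound transcription factor itself, had 90.9, 89.5 and 73.2 CPM in the methylphenidate libraries, against 93.9, 101 and 100 CPM in the saline libraries. The groups did not overlap, though methylphenidate replicate 1 and saline replicate 1 were close, and the log2 fold change was -0.22 (SE 0.09, unadjusted p = 0.0344, adjusted p = 0.630 by edgeR). Herpud1, which recruits the ER degradation machinery, had 31.9, 39.3 and 34.9 CPM in the methylphenidate libraries, against 49.1, 39.2 and 39.8 CPM in the saline libraries. Its groups overlapped in methylphenidate replicate 2 alone, and the log2 fold change was -0.27 (SE 0.12, unadjusted p = 0.0403, adjusted p = 0.640 by edgeR). Xbp1, the target of IRE1 splicing, had 59.6, 68.7 and 61.1 CPM in the methylphenidate libraries, against 81.1, 57.6 and 72.7 CPM in the saline libraries (log2 fold change -0.16, SE 0.12, adjusted p = 0.819 by edgeR). Counts per gene do not tell spliced from unspliced Xbp1, nor cut from uncut ATF6 protein.

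**Figure D4:**
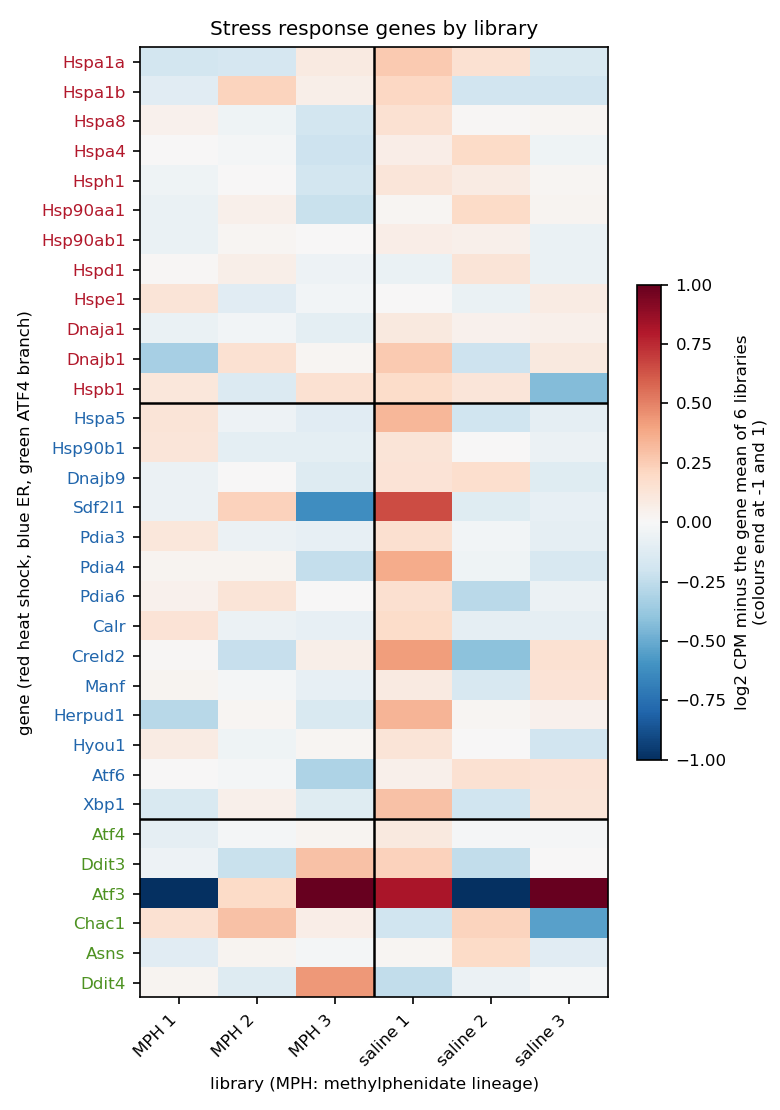
Log2 CPM of the 32 tested genes (rows) in the 6 libraries (columns, MPH for methylphenidate lineage), centred on each gene's mean, from blue (below) to red (above). The ER genes are red in saline replicate 1 in nearly every row, and Atf3 has the widest swings, with 2 libraries of the saline and 1 of the methylphenidate lineage well above the mean.

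The 5 ER genes that carry the ER stress response element were all highest in saline replicate 1, and their log2 fold changes ran from -0.15 for Creld2 to 0.10 for Pdia6. Of the 6 other ER genes whose promoter was searched, 5 were highest in that library, Dnajb9 being highest in saline replicate 2. These 6 include Herpud1, which carries element II. Over all genes tested, saline replicate 1 was the highest library for 16.0%. The promoters of Hyou1, Manf and Atf6 were not searched. Hyou1 was highest in saline replicate 1, Atf6 in saline replicate 2 and Manf in saline replicate 3.

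The spread between libraries of one lineage was set beside that of the 1000 tested genes nearest in level. All 14 ER genes varied within lineages more than the median of such genes, while 6 of 12 heat shock genes and 5 of 6 tested ATF4 branch genes did. In the lists read below, so did all 15 immediate early genes and all 14 glucocorticoid targets. Among the pathway lists, 18 of 37 other ER quality control genes, 17 of 37 co-chaperones and heat shock regulators and 17 of 34 other ATF4 pathway genes did. Every gene of each marker list did too, except in the endothelial and mural list, at 4 of 7. Leaving out any 1 library gave 12 to 14 of the ER genes above that median, 7 to 9 of the heat shock genes and 3 to 5 of the ATF4 branch genes. Without saline replicate 2 the counts were 12 of 14 ER and 9 of 12 heat shock genes. Hspa5 stood at the 96.9th percentile, with a within-lineage SD of 0.217 on the log2 scale, Dnajb1 at the 95.5th and Xbp1 and Sdf2l1 both at the 93.4th. At the other end, Dnaja1 stood at a percentile of 5.2 with an SD of 0.0352 and Atf4 at the 22.3rd. These are ranks in 6 libraries, given as a description with no test.

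**Figure D5:**
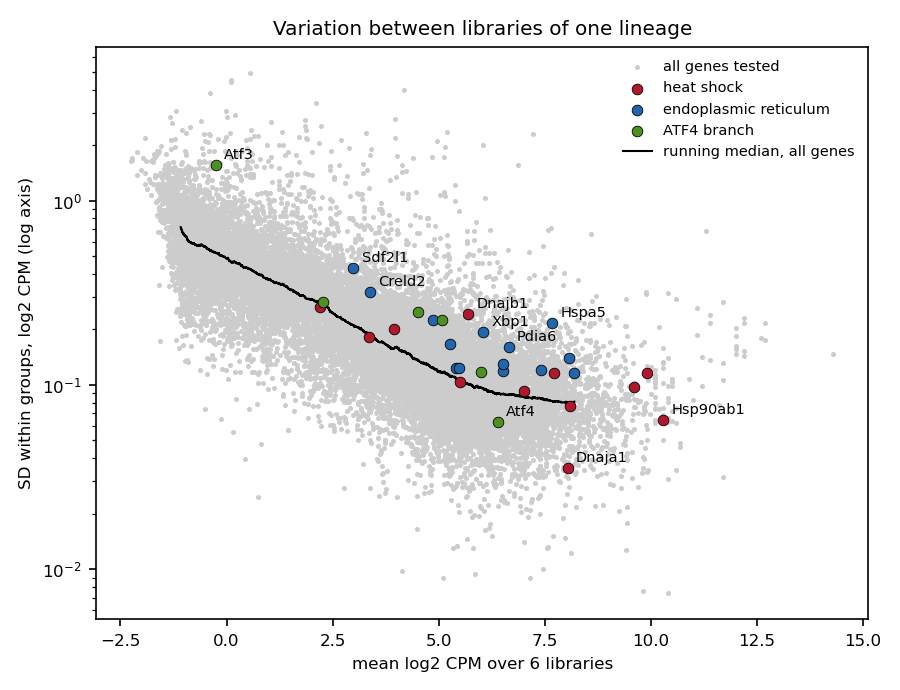
SD of log2 CPM within lineages (log axis) against mean log2 CPM for all 18327 genes tested (grey), with the running median as a line and the members in colour. The ER genes lie above the line throughout, with Hspa5 and Sdf2l1 among the farthest, and Dnaja1 lies well below it.

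In the ATF4 branch, the median log2 fold change was -0.02 over 6 tested genes, 3 above and 3 below 0. Atf4 itself was steady, with 78.6, 82.8 and 85.8 CPM in the methylphenidate libraries, against 89.7, 83.5 and 83.1 CPM in the saline libraries (log2 fold change -0.05, 95% interval -0.20 to 0.10, adjusted p = 0.906 by edgeR). Since ATF4 is controlled mainly by translation, its messenger RNA speaks little of its activity, and its targets are the better readout. Asns (asparagine synthetase) averaged 62.6 ± 3.02 CPM in the methylphenidate lineage and 65.7 ± 6.88 CPM in the saline lineage, a log2 fold change of -0.07 (SE 0.09). Ddit3 (CHOP, a death-promoting factor) had 22.0, 19.5 and 27.7 CPM in the methylphenidate libraries, against 26.6, 19.1 and 22.6 CPM in the saline libraries, a log2 fold change of 0.02 (SE 0.16).

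Chac1 and Ddit4 had the largest log2 fold changes above 0 among the members, and neither passed. Chac1, an enzyme that breaks down glutathione, had 5.31, 5.87 and 5.03 CPM in the methylphenidate libraries, against 4.15, 5.59 and 3.27 CPM in the saline libraries (log2 fold change 0.32, SE 0.23, adjusted p = 0.812 by edgeR). Leaving out saline replicate 3 gave 0.15, and leaving out saline replicate 2 gave 0.54. Ddit4 (REDD1), an inhibitor of mTORC1 that glucocorticoids induce too, had 34.2, 30.5 and 45.2 CPM in the methylphenidate libraries, against 28.1, 32.1 and 33 CPM in the saline libraries (log2 fold change 0.24, SE 0.14, adjusted p = 0.758 by edgeR). Its groups overlapped, and methylphenidate replicate 3 stood above the other 5 libraries. Without a library the value ran from 0.06 to 0.36, the lowest being without that replicate.

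Atf3, an immediate stress-induced repressor, varied most of all members. It had 3, 25 and 47 counts in methylphenidate replicates 1, 2 and 3, against 37, 6 and 45 counts in saline replicates 1, 2 and 3. Each lineage thus held a library with 3 or 6 counts and libraries with 25 or more counts, and the 95% interval of its log2 fold change, -2.11 to 1.61, covers both directions. Its within-lineage SD of 1.56 stood at the 98.0th percentile for genes of its level. Trib3, a pseudokinase and late ATF4 target, had 9, 10 and 8 counts in the methylphenidate libraries, against 10, 3 and 0 counts in the saline libraries, too few to test.

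The other genes of these pathways were read from lists that hold no member. Each of their counts at an unadjusted p under 0.05 stands beside the 3.31% of all genes that were lower and the 4.2% that were higher. Of 37 co-chaperones and heat shock regulators, all tested, 0 passed the threshold, and 3 were lower and 0 higher at an unadjusted p under 0.05. The median log2 fold change was -0.06, with 29 of 37 below 0. Hspa4l, an HSP110 relative, averaged 173 ± 18.5 CPM in the methylphenidate lineage and 204 ± 7.53 CPM in the saline lineage (log2 fold change -0.24, SE 0.08, adjusted p = 0.558 by edgeR). Bag5, a co-chaperone of HSP70, averaged 35.8 ± 0.298 CPM in the methylphenidate lineage and 41.3 ± 2.82 CPM in the saline lineage, with a log2 fold change of -0.21 (SE 0.08). Stip1, the adaptor between HSP70 and HSP90, had one of -0.16 (SE 0.06) and the HSP40 gene Dnaja2 one of -0.14 (SE 0.06), and edgeR gave them an adjusted p of 0.630 and 0.666. In these 4 genes the groups did not overlap, and in the whole list this was so for 6 genes lower and 1 higher in the methylphenidate lineage, beside the 6.51% and 6.97% of all genes given above. Hsf1 itself stood at 0.10 (SE 0.09) on the log2 scale.

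Of 37 other ER quality control genes, 0 passed, and 1 was higher and 0 lower at an unadjusted p under 0.05, with a median log2 fold change of -0.01. That gene was Wfs1, which encodes wolframin, an ER membrane protein also used as a marker of neuron subsets, with 79.9, 106 and 109 CPM in the methylphenidate libraries, against 61.5, 69.8 and 63.4 CPM in the saline libraries (log2 fold change 0.60, SE 0.12, adjusted p = 0.192 by edgeR). Next in order of p, the inhibitor of PERK signalling Dnajc3, the degradation lectin Os9 and the BiP co-chaperone Dnajb11 had log2 fold changes of -0.16, 0.14 and -0.14. The sensors Ern1 (IRE1) and Eif2ak3 (PERK) had -0.20 (SE 0.12) and -0.12 (SE 0.10). The striatal marker sums given above were also higher in the methylphenidate libraries, and their part in Wfs1 was not tested. Saline replicate 1 did not stand out in this list, whose centred mean was 0.02, 0.01 and -0.02 in methylphenidate replicates 1, 2 and 3, against 0.02, 0.03 and -0.05 in saline replicates 1, 2 and 3.

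Of 35 other ATF4 pathway genes, 34 were tested and 0 passed, with 1 lower and 0 higher at an unadjusted p under 0.05 and a median log2 fold change of -0.06. Gars, a transfer RNA synthetase gene, averaged 85.4 ± 1.76 CPM in the methylphenidate lineage and 95.2 ± 3.64 CPM in the saline lineage (log2 fold change -0.16, SE 0.06, adjusted p = 0.627 by edgeR). Wars1, of the same enzyme class, Eif2s1, which encodes eIF2-alpha, and Psph, an enzyme of serine synthesis, had log2 fold changes of -0.18, -0.20 and -0.22, and edgeR gave them an adjusted p of 0.666, 0.674 and 0.704.

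Lists for handling and hormone exposure were read beside these. Their counts at an unadjusted p under 0.05 stand beside the same shares of all genes, 3.31% lower and 4.2% higher. Of 15 immediate early genes, 0 passed and 2 were lower at an unadjusted p under 0.05, Klf4 and Egr1, whose log2 fold changes were -0.70 (SE 0.23) and -0.57 (SE 0.20). Btg2 and Egr2, next in order, had 0.46 (SE 0.22) and -0.34 (SE 0.32). Their centred mean was -0.22, 0.29 and -0.27 in methylphenidate replicates 1, 2 and 3, against 0.14, -0.17 and 0.23 in saline replicates 1, 2 and 3. The heat shock genes stood at -0.05, 0.00 and -0.06 in the methylphenidate libraries, against 0.11, 0.04 and -0.05 in the saline libraries. The part of handling was not tested. Of 14 glucocorticoid targets, 0 passed and 2 were lower at an unadjusted p under 0.05, Zbtb16 and Klf9, whose log2 fold changes were -0.35 (SE 0.11) and -0.25 (SE 0.09), while Tsc22d3 and Mt1 had -0.19 (SE 0.10) and 0.13 (SE 0.08). The median log2 fold change of this list was -0.17, with 10 of 14 below 0 and 4 above 0. Ddit4, a target of the same hormones, had a value above 0, as those 4 did.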

How the data were processed

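Per the labels' protocols, cortex RNA was selected for poly(A) and sequenced from strand-marking libraries. Tools listed in the submitters' processing notes are bcl2fastq 2.19, fastp 0.23.4, HISAT2 2.2.1, StringTie 2.2.1 and the build GRCm39, without roles. The sources used here name no annotation release or strand setting. The authors deposited raw gene counts, whole numbers without normalization.

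The test was edgeR 4.0.16 in R 4.3.3 (filterByExpr, TMM, glmQLFit and glmQLFTest, group as the only term, two-sided, Benjamini-Hochberg over all 18327 genes). SE was the fold change over the root of F. Centred values used log2 CPM with a prior count of 2. DESeq2 1.42.0, limma-voom (limma 3.58.1), other scalings and filters, a replicate block and leaving out each library were alternatives. Exon lengths and shared windows came from GENCODE M21 (GRCm38), which matched all 33 genes and was used for no coordinates. RefSeq promoters were read in the direction of transcription. Of the members' entries, 16 of 16 on the + strand and 13 of 16 on the - strand matched their transcripts this way. In reverse, 0 matched.

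Members and lists were chosen with earlier results of these data known. All members are named, and of each pathway list the 4 genes of smallest p. Hsf1, Ern1 and Eif2ak3 were added for their role, with their values in view.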

Additional observations from a re-analysis of the deposited data

How the results depend on the processing

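No member passed the threshold under any of the 15 alternatives, where the smallest adjusted p of a member was 0.553 in edgeR fits, 0.550 by DESeq2 and 0.614 by limma-voom. The count of all genes past it was 10 with total counts, 3 without a filter, 152 by DESeq2 and 2 with the replicate block, and 2 to 26 without any 1 library. Members at an unadjusted p under 0.05 numbered 1 with total counts, 5 with the replicate block, 4 by DESeq2 and by limma-voom, and 0 to 6 without any 1 library. Deviations of same-numbered libraries correlated at -0.04, 0.09 and -0.02 over genes, and those of differently numbered libraries at -0.11 to 0.13. With 3 libraries per lineage, these values cannot decide whether a shared number marks a pairing. Of 32 members, 17 kept their sign in every alternative. The sign of Calr turned, at 0.00, with RLE scaling, without a filter, without mitochondrially encoded genes and by DESeq2, and that of Hspe1, at 0.00, with total counts. Leaving out each library in turn, log2 fold changes that changed sign ran from -0.03 to 0.08 for Hspd1, -0.08 to 0.05 for Hspe1, -0.22 to 0.02 for Dnajb1, -0.11 to 0.17 for Hspb1, -0.15 to 0.13 for Hspa5, -0.12 to 0.01 for Hsp90b1, -0.09 to 0.05 for Pdia3, -0.24 to 0.04 for Pdia4, -0.07 to 0.09 for Calr, -0.35 to 0.05 for Creld2, -0.14 to 0.00 for Manf, -0.05 to 0.11 for Hyou1, -0.14 to 0.14 for Ddit3, -1.18 to 0.26 for Atf3 and -0.14 to 0.01 for Asns. The median of the ATF4 branch ran from -0.08 to 0.15, the highest without methylphenidate replicate 1. The count of ATF4 branch genes that varied more than genes of their level was 3 without saline replicate 2 or 3, an alternative chosen after seeing the data. The cause of these shifts was not tested. Counts were as low as 3 for Atf3 and 0 for Trib3, which depth limits.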

Other observations

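The row of 1 processed copy, chosen after its values were seen, had a lower value than its parent gene did. Hspd1-ps3 had 88, 93 and 145 counts in methylphenidate replicates 1, 2 and 3, against 196, 179 and 143 counts in saline replicates 1, 2 and 3 (log2 fold change -0.66, SE 0.25, adjusted p = 0.604 by edgeR). Its groups overlapped, since methylphenidate replicate 3 and saline replicate 3 were nearly level. Hspd1 itself had a log2 fold change of 0.00. The mice are outbred, and whether sequence differences between animals move reads between a gene and its copy was not tested.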
